A study of Homo sapiens and Mus musculus with 10 samples.

Results

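The 9 genes described here, IFIT1, IFIT2, IFIT3, ISG15, MX1, OAS1, OAS3, IFI6 and IRF9, are interferon-stimulated genes, chosen by symbol from the 63140 gene rows of the human expression table. All 9 had a row. The samples were 6 RNA-seq libraries of A375, an established human melanoma line, out of 10 libraries in the series. Control cells (Ctrl, n = 3) received nothing, and treated cells (n = 3) received the antimicrobial peptide LL-37 at 80 µg/mL for 24 h. The series text calls them biological triplicates of this line, and no genotype or other agent is named. It names 1 dose and 1 time, and no interferon-treated library was analysed here, so the level that these genes reach in A375 under interferon is not given. Expression was in TPM, transcript abundance scaled by transcript length and by library, which keeps no sequencing depth.

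Type I and type III interferons are secreted cytokines that act through paired receptors and the kinases JAK1 and TYK2. The kinases activate STAT proteins, STAT2 among them, which join IRF9 and bind the interferon-stimulated response element in front of genes that limit viruses. LL-37 is known from other cells: in complex with nucleic acid it is taken up by plasmacytoid dendritic cells, which answer with type I interferon. The question put to the A375 libraries was whether the level of these genes in untreated cells was low or high, and whether LL-37 raised it.

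Some of the 9 genes are neighbours. IFIT2, IFIT3 and IFIT1 lie within 122.8 kb on chromosome 10, from 89283694 to 89406486, and OAS1 and OAS3 lie within 66.5 kb on chromosome 12, from 112906777 to 112973249 (GRCh38, GENCODE 29). All 9 are annotated as protein-coding. RefSeq promoter windows (GRCh38.p14, 250 bases before to 50 after a start) were found for 8 of the 9, all except IFIT2. The core of the response element, written GAAANNGAAA and searched on both strands, was present in a window of 6 of these 8 genes, against 4.38% of all 27305 genes with a window and 3.57% of all 35116 windows. It was not found in the OAS1 and IRF9 windows. In MX1 it lay at position -196 from the start in the last of 3 windows, and at position 11 in the first. The following stretches, on the strand of each gene, show matches in capitals, to let the element in front of these genes be read. For IFIT3, OAS3 and IFI6 not all upstream matches are shown, and for MX1 none is. They were IFIT1 at chr10:89392492-89392544, IFIT3 at chr10:89327860-89327899, ISG15 at chr1:1013369-1013414, OAS3 at chr12:112938316-112938355 and IFI6 at chr1:27672324-27672363.
IFIT1: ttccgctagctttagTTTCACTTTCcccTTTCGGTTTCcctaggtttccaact
IFIT3: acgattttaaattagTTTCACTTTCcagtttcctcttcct
ISG15: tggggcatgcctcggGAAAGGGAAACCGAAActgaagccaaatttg
OAS3: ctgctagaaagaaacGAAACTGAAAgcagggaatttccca
IFI6: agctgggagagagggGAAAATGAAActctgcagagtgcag
In ISG15 the capitals cover 2 overlapping matches. IFIT1 and IFIT3 show the core as it reads on the opposite strand, and a match is a description of the letters only.

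The libraries bear on every value below. The third LL-37 replicate was unlike the rest: over tested genes it correlated with them at 0.963 or less, where the remaining 5 correlated with each other at 0.985 or more, and 12991 genes reached 1 TPM in it, where 14304 to 14555 did so in the rest. The median gene lay 0.59 lower in it than in Ctrl on the log2(TPM + 1) scale, and within 0.03 of Ctrl in LL-37 replicates 1 and 2. Results are therefore given with and without this library. The melanocyte lineage marker SOX10 was 266 to 296 TPM in Ctrl and MITF 4.57 to 5.45 TPM, while the pigment gene TYR was listed at 0 in all 6 libraries and MLANA at no more than 0.02. The labels' extraction text speaks of keratinocytes, but the keratinocyte genes KRT1, DSG3 and TP63 were listed at 0 throughout and KRT5 reached 0.14 TPM in 1 library; of 11 such markers 4 were tested, led by KRT10 at 25.6 ± 0.534 TPM in untreated and 21.1 ± 3.18 TPM in treated cells. The 11 summed to 30.9 to 32.1 TPM in Ctrl and 23.1 to 29.1 with LL-37. The 10 melanocyte markers, of which 5 were tested, summed to 385 to 418 TPM in Ctrl and 246 to 490 in treated cells, mostly SOX10. The leukocyte gene PTPRC was at most 0.07 TPM, and CLEC4C, a plasmacytoid dendritic cell marker, was listed at 0; the 10 leukocyte markers, mostly CD68, summed to 36.7 to 43.9 and 23.2 to 43.3 TPM, and 7 fibroblast markers to 7.18 to 8.02 and 3.41 to 7.97 TPM.

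In untreated cells the RNA of the 9 genes was at low to middling levels, and LL-37 raised none of these genes past the threshold. In Ctrl the order of the means was IFI6, ISG15, IRF9, OAS1, OAS3, IFIT3, MX1, IFIT2 and IFIT1, from 21.4 down to 0.430 TPM. Only OAS1 and OAS3, at 7.92 and 7.87 TPM, were neighbours whose Ctrl libraries overlapped. IFI6 stood above 64.5% of the 14399 genes tested, ISG15 above 59.8%, IRF9 above 51.3%, OAS1 above 39.1%, OAS3 above 38.9%, IFIT3 above 35.4%, MX1 above 23.7% and IFIT2 above 11.1%. IFIT1 was below 1 TPM in every library and was left out of the test, which required 1 TPM in at least 3 libraries. The 9 together summed to 81.5, 81.9 and 78.9 TPM in Ctrl and to 80.2, 76.9 and 75.4 TPM with LL-37. The lowest of these sums was that of LL-37 replicate 3, and the 2 groups overlapped. In bulk RNA, fewer cells with a transcript and less transcript per cell cannot be told apart.

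**Figure D1:**
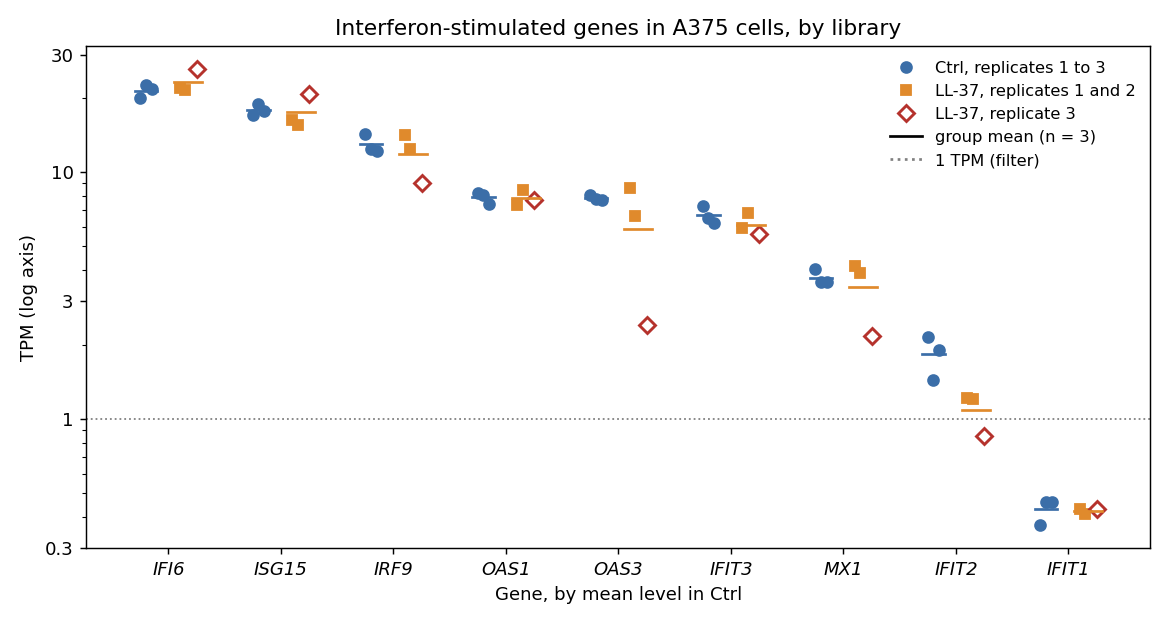
TPM of the 9 genes in each A375 library on a log axis, with circles for Ctrl, squares for LL-37 replicates 1 and 2, an open diamond for LL-37 replicate 3 and lines for group means (n = 3). In IFIT2 alone all 3 LL-37 libraries (0.85 to 1.22 TPM) lie below all 3 Ctrl libraries (1.44 to 2.15 TPM), and OAS3 has its outlying value of 2.41 TPM in LL-37 replicate 3.

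None of the 8 tested members passed an adjusted p of 0.05 in limma over all genes, with all libraries or without LL-37 replicate 3. Over all genes tested the share that passed was 0.0% with all libraries, in either direction. It was 0.118% (17 genes) without that library, 0.0486% higher and 0.0694% lower. With all libraries the log2 change was below 0 in 7 of the 8 tested members, beside 80.3% of all genes. At an unadjusted p under 0.05 there was 1 member with all libraries (IFIT2, lower), against 2.52% of all genes, and 0 without LL-37 replicate 3, against 9.01%. Over the 9 members the median log2 change came to -0.11 with all libraries and to -0.01 once LL-37 replicate 3 was dropped, where all genes tested had medians of -0.20 and 0.00. Fold changes are differences of mean log2(TPM + 1), a scale on which low genes appear to change less than they do. The range of 18 single values, the 9 members in LL-37 replicates 1 and 2 set against the Ctrl mean, was -0.36 to 0.13, and that of the Ctrl libraries around their own mean was -0.21 to 0.16. The treated values above the Ctrl mean thus stayed within this Ctrl range pooled over the 9 members. IFIT2 at -0.34 and -0.36 and OAS3 in LL-37 replicate 2 at -0.22 lay below it. Set against its own controls, a member could differ more. MX1 and OAS3 in LL-37 replicate 1 and OAS1 in replicate 2 lay above every control of the same gene. IFIT2 and ISG15 in both replicates, IFIT3 and OAS1 in replicate 1, and OAS3 in replicate 2 lay below every control.

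The effector IFIT genes encode tetratricopeptide repeat proteins that bind viral or foreign RNA. IFIT1, which recognises incompletely capped RNA, was 0.37, 0.46 and 0.46 TPM in Ctrl and 0.43, 0.41 and 0.43 TPM with LL-37. All 6 values were close to each other and the groups overlapped. With no filter on low values its log2 change was -0.01 ± 0.07 (SE), with a limma adjusted p of 0.974 over 28252 genes. IFIT2 was 2.15, 1.44 and 1.90 TPM in Ctrl and 1.22, 1.20 and 0.85 TPM with LL-37. It was lower in every LL-37 library than in any Ctrl library, the only one of the 8 tested members whose groups did not overlap, where 10.3% of all genes were apart in this direction and 12.4% in either. Its log2 change was -0.43 ± 0.17 (SE), with a 95% interval of -0.84 to -0.02 and a limma adjusted p of 0.739, so the difference did not pass over all genes. Without LL-37 replicate 3 it was -0.35, with an interval of -0.73 to 0.04 and a limma adjusted p of 0.615. The ratio of its mean TPM, LL-37 over Ctrl, was 0.596, and 0.661 without that library. IFIT2 met the filter with 3 Ctrl libraries and 2 LL-37 libraries at 1 TPM or more. IFIT3, which binds and stabilises IFIT1, was 7.30, 6.55 and 6.22 TPM in Ctrl and 5.96, 6.84 and 5.60 TPM with LL-37. These groups overlapped, and the log2 change was -0.11 ± 0.17 (SE; limma adjusted p = 0.771), or -0.06 without LL-37 replicate 3. Of the 3 neighbouring IFIT genes the most abundant was thus IFIT3, at 6.69 ± 0.553 TPM in Ctrl against 0.430 ± 0.052 for IFIT1.

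ISG15, a ubiquitin-like protein that is attached to other proteins during an interferon response, was 17.02, 18.95 and 17.72 TPM in Ctrl and 16.34, 15.54 and 20.84 TPM with LL-37. LL-37 replicates 1 and 2 were the lowest of the 6 values and LL-37 replicate 3 was the highest. The log2 change was -0.03 (95% interval -0.44 to 0.37; limma adjusted p = 0.924) with all libraries. Without LL-37 replicate 3 it was -0.16 (-0.36 to 0.05; limma adjusted p = 0.702), and the groups were then apart, as they were in IFIT2. Those 2 of 8 tested members stand beside 12.9% of all genes apart in this direction, and 25.1% in either, without that library. IFI6, a small hydrophobic membrane protein that restricts some RNA viruses, was 20.04, 22.55 and 21.71 TPM in Ctrl and 21.96, 21.48 and 26.26 TPM with LL-37. Its LL-37 values lay within the Ctrl range except in replicate 3, the highest of the 6. The log2 change was 0.11 (95% interval -0.25 to 0.46; limma adjusted p = 0.754), and 0.02 without LL-37 replicate 3. ISG15 and IFI6 are the 2 shortest members, and together they made up 45.5% to 50.7% of the summed TPM of the 9 in the other 5 libraries and 62.5% in LL-37 replicate 3.

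The antiviral enzymes kept close to Ctrl in LL-37 replicates 1 and 2, the lowest being OAS3 in replicate 2. MX1, a dynamin-like GTPase that traps viral nucleocapsids, was 4.07, 3.58 and 3.58 TPM in Ctrl and 4.17, 3.91 and 2.17 TPM with LL-37. OAS1, which makes the oligoadenylates that switch on RNase L, was 8.22, 8.11 and 7.44 TPM in Ctrl and 7.36, 8.48 and 7.75 TPM with LL-37. OAS3, the longest enzyme of that family, was 8.12, 7.80 and 7.69 TPM in Ctrl and 8.63, 6.64 and 2.41 TPM with LL-37. All 3 genes overlapped between the groups, and in MX1 and OAS3 the lowest value by far was that of LL-37 replicate 3. OAS3 had the most negative log2 change of the members, -0.49 ± 0.39 (SE; limma adjusted p = 0.739), and without LL-37 replicate 3 it was -0.05. MX1 went from -0.13 to 0.09 and OAS1 from -0.01 to 0.00 when that library was left out. IRF9, the DNA-binding partner of STAT2, was 14.25, 12.43 and 12.20 TPM in Ctrl and 14.14, 12.42 and 9.05 TPM with LL-37. Its log2 change was -0.13 ± 0.21 (SE; limma adjusted p = 0.766) and 0.03 without LL-37 replicate 3, where the groups overlapped as well.

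The intervals show what size of rise these libraries leave room for. With all libraries the highest upper bound among the 8 tested members was that of IFI6, a 1.38-fold rise on the TPM + 1 scale. Without LL-37 replicate 3 it was that of MX1, 1.30-fold. Rescaling to a common median of gene ratios, which shifts the all-gene median of the log2 change from -0.20 to 0.01, put the IFI6 bound at 2.01-fold. On that scale the log2 changes of the members ran from -0.30 in OAS3 to 0.35 in IFI6, and those of IFIT3, ISG15, MX1, OAS1 and IRF9 turned from below 0 to above 0, none past the threshold in limma (adjusted p 0.817 to 0.885). A rise of these genes was therefore not detected, and a rise smaller than these bounds is not excluded by the intervals.

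**Figure D2:**
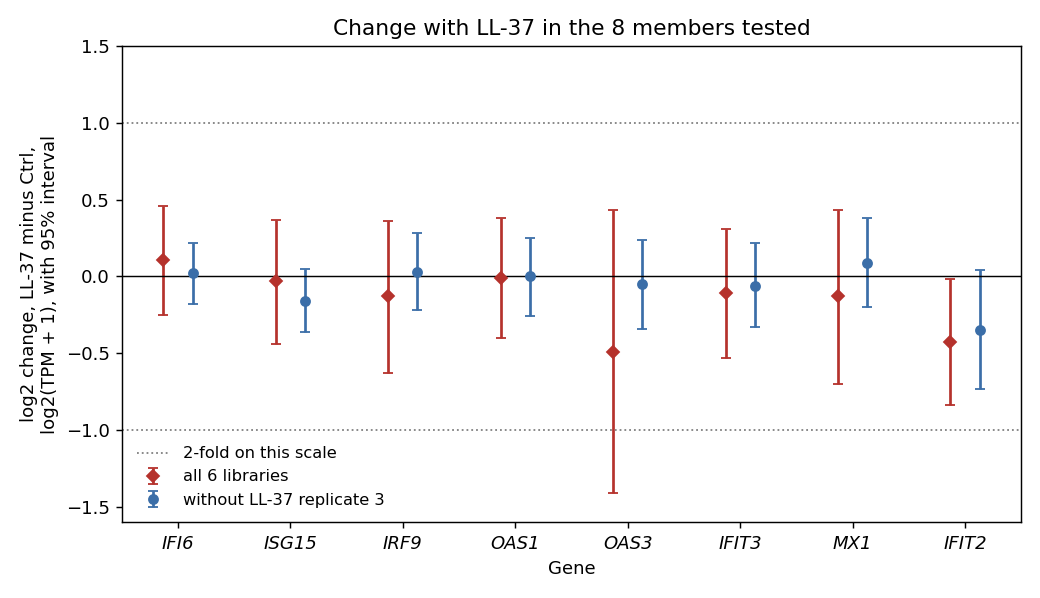
Log2 change with LL-37 against Ctrl on the log2(TPM + 1) scale in the 8 tested members, with 95% limma intervals, for all 6 libraries (diamonds) and without LL-37 replicate 3 (circles). The upper ends reach 0.46 (IFI6) and 0.38 (MX1) at most, and the wide interval of OAS3 (-1.41 to 0.43) narrows to -0.34 to 0.24 without LL-37 replicate 3.

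In LL-37 replicate 3 the longer members mostly lay further below Ctrl. The shortest, ISG15 (787 bases) and IFI6 (841 bases), were 0.21 and 0.28 above the Ctrl mean on the log2(TPM + 1) scale. OAS1 (2416 bases) and IFIT3 (2496 bases) were -0.03 and -0.22 from it, MX1 (3470 bases) and IFIT2 (3703 bases) -0.58 and -0.61, and OAS3 (6719 bases) -1.38. IRF9 (1838 bases) was at -0.47 and did not follow this order, nor did IFIT1 (4613 bases) at 0.00. Across the 9 members, Spearman's rho between length and deviation was -0.68 in LL-37 replicate 3, against 0.07 and -0.23 in replicates 1 and 2. Across the 42 tested genes of a wider interferon-stimulated list it was -0.62 in LL-37 replicate 3 but 0.47 in replicate 1 and 0.18 in replicate 2, and across 13878 tested genes it was -0.56 in replicate 3. Genes of 1 library share its preparation and depth and are no independent replicates. In the class above 5000 bases the median of all genes was -1.04 in that library, and in the class up to 1000 bases -0.07. Lengths are those of the longest GENCODE 29 transcript, which may not be the expressed one. The part of length in the member values was not tested beyond the removal of each library's length trend, which gave OAS3 -0.15, IFIT2 -0.21, IFI6 0.13 and MX1 0.08.

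**Figure D3:**
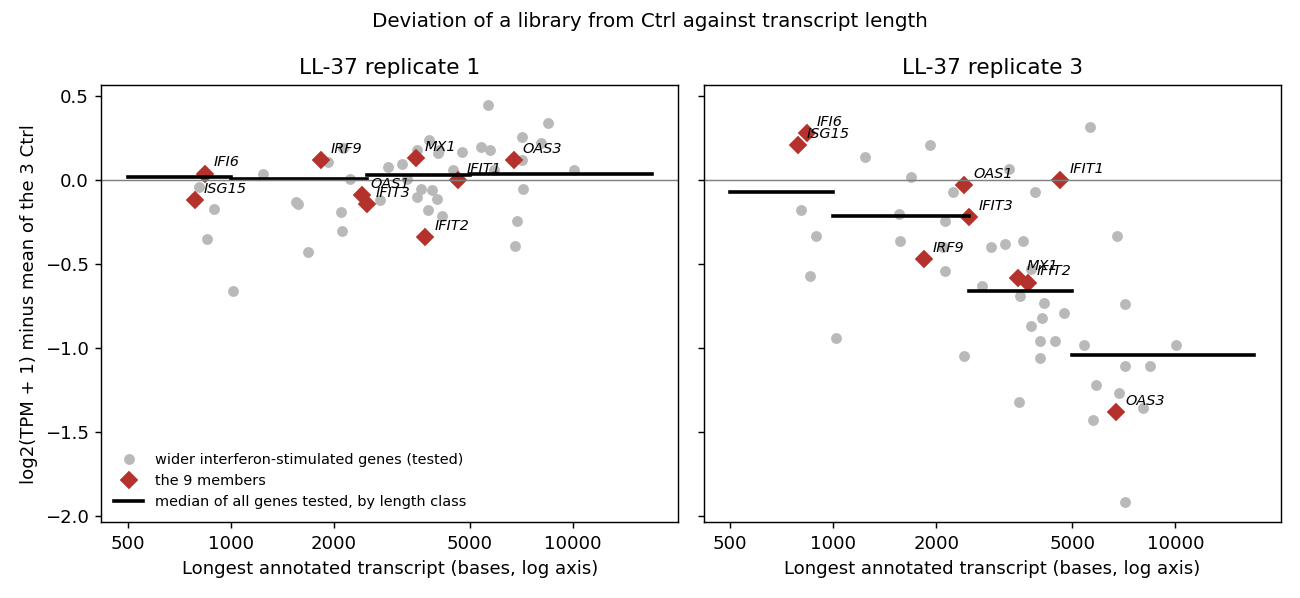
Deviation of LL-37 replicate 1 and LL-37 replicate 3 from the Ctrl mean, in log2(TPM + 1), against longest transcript length on a log axis, for the 9 members (diamonds), 42 tested wider interferon-stimulated genes (circles) and the median of all tested genes in 4 length classes (bars). Members spread downward with length in replicate 3, from 0.28 in IFI6 to -1.38 in OAS3, and stay between -0.34 and 0.13 in replicate 1.

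Other interferon-stimulated genes showed the same absence of a called rise. Of 50 further genes, 42 were tested and 0 passed in either direction (limma), with 3 at an unadjusted p under 0.05 (1 higher, 2 lower), and 0 passed without LL-37 replicate 3, with 7 at an unadjusted p under 0.05 (2 higher, 5 lower). Over all genes, for this list and those that follow, an unadjusted p under 0.05 was met by 2.52% with all libraries and by 9.01% without that library. The list's median log2 change came to -0.26 with all libraries and to -0.02 once LL-37 replicate 3 was dropped, beside -0.20 and 0.00 for all genes. Over these 42 and the 8 tested members, 0 of 50 had a log2 change of 0.5 or more in either fit. With median-of-ratios scaling 1 of the 50 did, ISG20 at 0.65. How many of all genes reached 0.5 was not counted. A log2 change of 1 or more was reached by 0 of the 50 in either fit. Among all genes 0.132% reached it, or 0.278% once LL-37 replicate 3 was dropped. Rises of that size were thus rare in any gene, and the counts of 0 cannot set these 50 apart from other genes. The most abundant was IFITM3, which blocks virus entry at endosomal membranes, at 832 ± 33.8 TPM in untreated and 777 ± 38.8 TPM in treated cells. Some IFITM3 reads may be shared with the related genes IFITM1 and IFITM2. LGALS3BP, a secreted glycoprotein, was 476 ± 35.1 and 365 ± 118 TPM, and dropping LL-37 replicate 3 took its log2 change from -0.44 to -0.13. The RNA editor ADAR averaged 60.4 ± 5.22 and 46.4 ± 27.2 TPM, and its log2 change was -0.62, or 0.04 once that library was dropped. These 3 genes stood far above the 9 members in untreated cells.

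Among the 42, groups did not overlap for 10 genes, 2 higher (TRIM21 and ISG20) and 8 lower (IFI16, IFI30, IFITM1, BST2, HERC5, PARP9, SAMD9 and UBE2L6), beside 2.13% higher and 10.3% lower over all genes. Once LL-37 replicate 3 was dropped, 4 were higher, MX2 and PARP14 being added, and 8 were lower, beside 12.3% and 12.9% of all genes. BST2, the tetherin that holds budding virus on the cell surface, had the most negative log2 change of the list. It was 12.05, 11.12 and 12.74 TPM in Ctrl and 7.22, 7.66 and 5.75 TPM with LL-37. Every treated library lay well below every control, with a log2 change of -0.73 (limma adjusted p = 0.739), or -0.62 without LL-37 replicate 3 (limma adjusted p = 0.0911) and -0.50 with median-of-ratios scaling. ISG20, an exonuclease of single-stranded RNA, went the other way, and was named after its values were seen. It was 154.41, 168.48 and 164.08 TPM in Ctrl and 222.16, 216.88 and 202.94 TPM with LL-37. All 3 treated libraries exceeded the controls, with a log2 change of 0.40 (limma adjusted p = 0.739), or 0.43 without LL-37 replicate 3 (limma adjusted p = 0.0674). With median-of-ratios scaling it was 0.65, with a 95% interval of 0.17 to 1.12 (limma adjusted p = 0.817). Neither gene passed the threshold, and these 2 interferon-stimulated genes differed in direction.

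The ligands were nearly absent from the table. Of 21 interferon genes, 19 were listed at 0 in all 6 libraries, among them IFNB1, IFNG and the type III genes IFNL1, IFNL2 and IFNL3. IFNA5 was listed at 0.07 TPM in LL-37 replicate 3 and at 0 elsewhere. IFNE, an epithelial type I interferon, was the only one tested, at 1.54, 0.96 and 1.71 TPM in Ctrl and 1.29, 1.24 and 1.05 TPM with LL-37. Its groups overlapped, with a log2 change of -0.12 (limma adjusted p = 0.761).

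The receptors were present in both groups. All 6 receptor genes were tested and 0 passed (limma), with 0 at an unadjusted p under 0.05, or 1, higher, when LL-37 replicate 3 was dropped. IFNGR2 and IFNGR1, the chains of the interferon gamma receptor, were 40.2 ± 0.497 and 19.4 ± 0.595 TPM in Ctrl and 43.1 ± 6.88 and 19.7 ± 2.90 TPM with LL-37. IFNAR1, a chain of the type I receptor, was 17.1 ± 2.94 and 13.1 ± 4.34 TPM, and IFNLR1, the specific chain of the type III receptor, averaged 3.45 ± 0.224 and 2.80 ± 1.35 TPM. No receptor had groups apart with all libraries, beside 12.4% of all genes in either direction. Once LL-37 replicate 3 was dropped, 1 of the 6 was higher (IFNGR2) and 1 lower (IFNGR1) in both treated libraries than in any control. Over all genes these shares were 12.3% and 12.9%. The log2 changes of IFNGR2 and IFNGR1 were then 0.21 and -0.10. Dropping LL-37 replicate 3 took the log2 change of IFNAR1 from -0.39 to -0.12 and that of IFNLR1 from -0.30 to 0.04.

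Of 11 JAK-STAT genes, 10 were tested and 0 passed (limma), with 1 at an unadjusted p under 0.05, lower, and 2, both lower, without LL-37 replicate 3. The list had a median log2 change of -0.44, and of -0.04 once LL-37 replicate 3 was dropped. The kinase TYK2 averaged 51.9 ± 5.09 TPM in untreated and 44.9 ± 17.8 TPM in treated cells, and the phosphatase PTPN11 45.8 ± 4.77 and 34.9 ± 20.1 TPM. Groups did not overlap for 4 of the 10 tested genes, all with LL-37 lower, among them STAT2, STAT3 and SOCS3. Over all genes 10.3% were apart in this direction. Without LL-37 replicate 3 again 4 were lower and 0 higher, beside 12.9% and 12.3% of all genes. STAT2, which binds IRF9, averaged 19.2 ± 0.814 TPM in untreated and 14.3 ± 6.19 TPM in treated cells. Its log2 change of -0.50 became -0.09 when LL-37 replicate 3 was dropped. STAT3, a mediator of interleukin 6 family signals, was 39.13, 37.73 and 43.47 TPM in Ctrl and 33.51, 33.46 and 12.34 TPM with LL-37, which gave a log2 change of -0.71, or of -0.25 once LL-37 replicate 3 was dropped. SOCS3, a feedback inhibitor that STAT3 induces, was 7.33, 7.42 and 7.68 TPM in Ctrl and 5.57, 5.44 and 3.36 TPM with LL-37. SOCS3 was lower in all 3 treated libraries, with a log2 change of -0.57 (limma adjusted p = 0.739), or -0.38 without LL-37 replicate 3 (limma adjusted p = 0.274).

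All 5 interferon regulatory factor genes were tested and 0 passed (limma), with 0 at an unadjusted p under 0.05 in either fit. IRF3, which starts interferon transcription after nucleic acid is sensed, averaged 57.6 ± 4.23 TPM in untreated and 52.6 ± 14.4 TPM in treated cells, and IRF2 was 14.8 ± 0.429 and 13.9 ± 3.12 TPM. IRF7, itself raised by interferon in most cells, was 4.12 ± 1.17 and 3.46 ± 0.704 TPM, and IRF5 was 2.36 ± 0.110 and 1.94 ± 1.13 TPM. Of 16 nucleic acid sensing genes 12 were tested and 0 passed (limma), with 0 at an unadjusted p under 0.05, or 1, lower, without LL-37 replicate 3. The adaptor STING1 was 45.5 ± 3.04 and 36.0 ± 10.7 TPM and the kinase TBK1 30.9 ± 7.42 and 25.9 ± 1.32 TPM. CGAS, the DNA sensor that feeds STING1, was at most 0.07 TPM, and TLR7 and TLR9, the endosomal receptors of plasmacytoid dendritic cells, at most 0.01 and 0.20 TPM. TLR3, which senses double-stranded RNA, was 3.64, 3.60 and 4.23 TPM in Ctrl and 2.71, 3.05 and 1.09 TPM with LL-37. Its treated libraries were all lower, with a log2 change of -0.61, or -0.31 without LL-37 replicate 3 (limma adjusted p = 0.544). TLR3 and STING1 were the 2 of 12 tested sensing genes with groups apart, both lower, beside 10.3% of all genes. Both stayed apart once LL-37 replicate 3 was dropped, beside 12.9%, and TICAM1 and IKBKE were then higher, beside 12.3%. TLR4 was 7.44 ± 0.584 and 5.04 ± 2.02 TPM, and its groups overlapped.

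Of 14 interferon gamma and chemokine targets, 5 were tested and 0 passed (limma), with 0 at an unadjusted p under 0.05, or 1, higher, without LL-37 replicate 3. The chemokine genes CXCL9 and CCL5 were listed at 0 in all libraries, CXCL10 at no more than 0.32 TPM and CXCL11 at no more than 0.15 TPM. The most abundant was WARS1, a tryptophanyl-tRNA synthetase, at 342 ± 19.2 TPM in untreated and 313 ± 93.3 TPM in treated cells. GBP2, a guanylate-binding protein, averaged 15.8 ± 2.10 and 12.2 ± 3.03 TPM, and its log2 change was -0.37, or -0.19 once LL-37 replicate 3 was dropped. All 5 tested genes, GBP2 among them, overlapped between the groups with all libraries. Once LL-37 replicate 3 was dropped, 4 of the 5 lay above every control, beside 12.3% of all genes. These were GBP1, CIITA, ICAM1 and WARS1, while GBP2 still overlapped. The list's median log2 change went from -0.18 to 0.14. CIITA, the activator of MHC class II genes, named after its values were seen, was the one at an unadjusted p under 0.05. It was 2.68, 2.46 and 2.90 TPM in Ctrl and 4.27, 3.37 and 1.11 TPM with LL-37. LL-37 replicates 1 and 2 were the highest of the 6 values and LL-37 replicate 3 the lowest. Its log2 change was -0.01, or 0.38 without LL-37 replicate 3 (limma adjusted p = 0.460). For ICAM1, a leukocyte adhesion molecule, the values were -0.27 and 0.14, for WARS1 -0.18 and 0.10, and for GBP1 0.03 and 0.20.

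**Figure D4:**
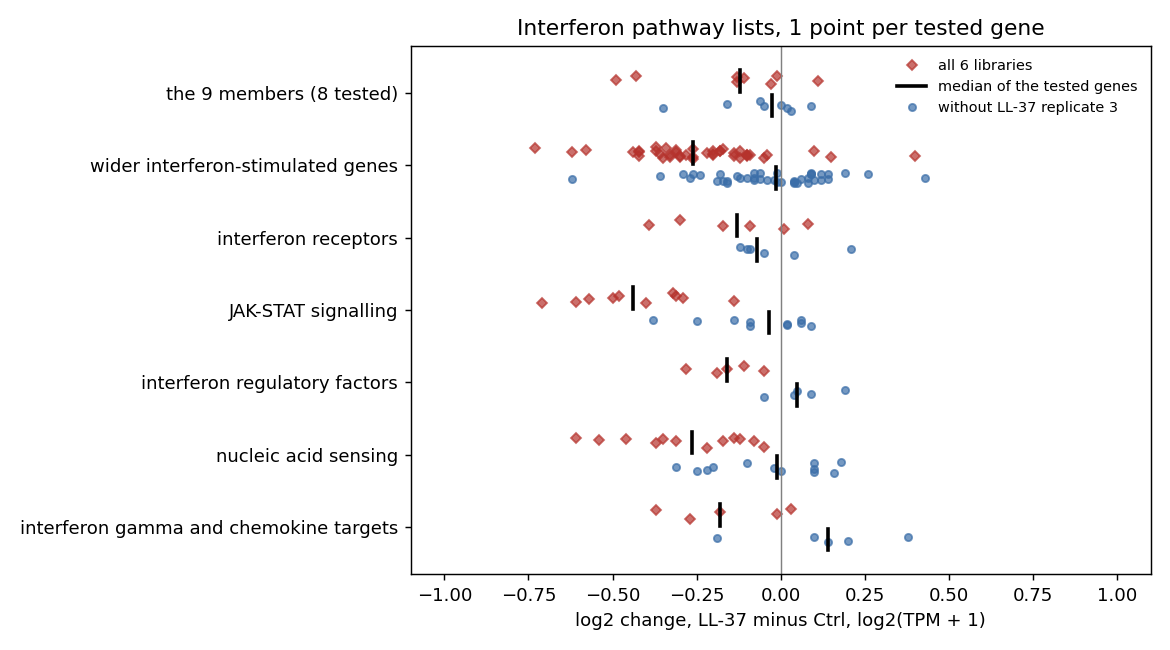
Log2 change with LL-37 against Ctrl, log2(TPM + 1), for each tested gene of 7 lists, with all 6 libraries (diamonds) and without LL-37 replicate 3 (circles), and black bars for the medians of the tested genes. List medians run from -0.44 to -0.12 with all libraries and from -0.07 to 0.14 without LL-37 replicate 3, and no gene has a value of 0.5 or more in either of these fits.

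Among 9958 other tested genes with a mean of at least 5 TPM, those whose values over the 6 libraries lay nearest to the median member included MRPS9, CCT8, CYP27A1 and HNRNPF. Their root mean square distances were 0.019 to 0.023 on the log2(TPM + 1) scale. MRPS9, the nearest, was 24.29, 21.86 and 22.16 TPM in Ctrl and 22.43, 22.59 and 17.82 TPM with LL-37. It was highest in Ctrl replicate 1 and lowest in LL-37 replicate 3.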

How the data were processed

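Per the labels' protocols, a stranded mRNA kit was used for the 6 A375 libraries. The authors deposited TPM per gene, 1 column per library. The build GRCh38 is named in the submitters' processing notes, while for the aligner and quantifier the name is not given in the sources used here. Since TPM keep no depth, no counting interval can be given. The mouse libraries were not analysed here. Identifiers were named with a gene table that gave a symbol to 62541 of 63140 rows.

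A gene entered the test if 3 or more libraries reached 1 TPM, and was tested as log2(TPM + 1) with limma 3.58.1 (R 4.3.3; intensity trend, two-sided, Benjamini-Hochberg over 14399 genes, threshold 0.05, 95% intervals), after a check on simulated data. The simulated noise was drawn separately for each gene, so that check did not cover a shift of a whole library such as LL-37 replicate 3. Changes were simulated only in genes with a mean log2(TPM + 1) above 3, so it did not cover low members such as IFIT2 and MX1. Members and lists were chosen with earlier results of these data known. No list had a gene past the threshold, and of each the text names the 2 most abundant and the 2 most changed tested genes; genes with non-overlapping groups were named after their values were seen, as were single ligands, sensors, chemokines and markers. USP18, IFIH1 and ZBP1 each stand in 2 lists. Alternatives changed the pseudocount, filter, scaling and libraries. Some genes that these rules select are not reported here. Promoter sequences came from RefSeq.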

Additional observations from a re-analysis of the deposited data

How the results depend on the processing

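In the 18 alternatives the tested members stayed on the same side of the threshold (a filter of 5 TPM left IFIT2 and MX1 out; 142 member values, smallest limma adjusted p 0.449). The count of 0 genes past the threshold rose to 17 without LL-37 replicate 3; dropping it together with median-of-ratios scaling gave 9, and together with a pseudocount of 0.1 gave 20; leaving out each library gave 0 to 17, and other settings gave 0. The median log2 change of the 9 members became 0.10 with median-of-ratios scaling, 0.10 with quantile normalization, 0.02 with length trends removed (chosen after the data were seen) and -0.01 without LL-37 replicate 3, with or without median-of-ratios scaling; leaving out each library gave -0.18 to -0.01. The summed TPM, LL-37 over Ctrl, went from 0.959 to 1.17 with median-of-ratios scaling, and to 0.943 to 0.973 over libraries left out. Signs turned, with the cause not tested, in 25 of the 142 values, none past the threshold. With median-of-ratios scaling and quantile normalization IFIT3 became 0.11 and 0.15, ISG15 0.21 and 0.17, MX1 0.05 and 0.08, OAS1 0.22 and 0.24, and IRF9 0.10 and 0.10. With length trends removed IFIT3 became 0.02, MX1 0.08 and OAS1 0.12. With LL-37 replicate 3 left out and median-of-ratios scaling or a pseudocount of 0.1, MX1 became 0.09 and 0.11 and IRF9 0.03 and 0.04. Over libraries left out, ISG15 ran from -0.16 to 0.04, MX1 from -0.26 to 0.09, OAS1 from -0.06 to 0.03 and IRF9 from -0.26 to 0.03. The replicate block gave 0 genes past the threshold. Deviations of same-numbered libraries from their group means correlated at 0.091, -0.196 and -0.168, and not every library correlated best with its own number. The LL-37 mean includes the outlying LL-37 replicate 3, so these correlations cannot decide whether libraries were paired. TPM keep no depth, so the precision of low genes such as IFIT1 and IFIT2 is unknown.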
